A study of Homo sapiens and Mus musculus with 213 samples.

Results

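REST, a zinc finger repressor, and the corepressors it brings to DNA were followed here as a set of 9 genes. The set consists of REST itself, the CoREST scaffolds RCOR1, RCOR2 and RCOR3, the scaffold SIN3A, the histone methyltransferase EHMT2, the histone demethylase KDM1A, and the histone deacetylases HDAC1 and HDAC2. The members were taken by gene symbol, with earlier results of these data known. All 9 were found among the 58336 genes listed, and all 9 passed the minimum level for testing, as did 20884 genes in total.

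The study asked what a G-quadruplex (G4), a folded structure of guanine-rich DNA, does at the promoter of MYC, the gene of a growth-promoting transcription factor. RNA-seq was carried out on 3 lines of HEK293T, a human cell line that came from embryonic kidney and divides without limit, with 3 libraries a line, which are 9 of the 213 samples of the series. MYC WT cells carry the native G4 motif, MYC MUT cells carry point mutations in its G-runs that abolish folding, and in SWP cells the native motif was exchanged for another G4-forming motif. Edited cells were obtained by CRISPR, sorted as single cells and selected as homozygous clones, so a difference between lines and a difference between clones cannot be told apart. The labels number the libraries of a line as biological replicates and do not say whether they came from separate cultures, so the tests measure the spread between these libraries.

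Between 65024354 and 98497026 reads were counted on genes per library, with 28464 to 30149 genes detected and 0.879% to 1.34% of reads on mitochondrial genes. Libraries of a line differed beyond counting error (chi-square per degree of freedom 9.00 to 61.1), so all 9 were counted as separate samples. The names of the 3 MYC WT libraries alone carry a sequencing pool. If the pools differed, the pool and the difference of MYC WT from either edited line cannot be told apart. The names do not say whether MYC MUT and SWP shared a pool. Of 6 markers of HEK293T cells (VIM, KRT8, KRT18, CDH2, PAX2 and LIN28B) all 6 were present in every library, with a summed level of 75655 to 92772 normalized counts, most of it VIM. The 6 markers of other lineages (PTPRC, CD3E, PECAM1, ALB, LYZ and INS) summed to at most 11.9. MYC had 20020, 28396 and 21580 normalized counts in MYC WT, 10693, 11176 and 12400 in MYC MUT, and 14480, 24743 and 25245 in SWP. It was lower in MYC MUT than in MYC WT (log2 fold change −1.02 ± 0.19 SE, adjusted p = 0.00182), and its interval for SWP against MYC WT included 0 (−0.15 ± 0.19, adjusted p = 0.712). In bulk RNA, fewer cells of a type and less RNA per cell cannot be told apart. Values are read counts divided by a size factor for each library, and fold changes are on the scale of log2(normalized count + 1).

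REST recognizes a DNA element called RE1 (repressor element 1), found at many genes of neuronal function, and keeps those genes low in cells outside the nervous system. One end of REST binds SIN3A, which carries HDAC1 and HDAC2. The other end binds CoREST, a complex built on an RCOR protein that holds KDM1A, also called LSD1, which removes methyl groups from lysine 4 of histone H3, again with HDAC1 or HDAC2. EHMT2, also called G9a, methylates lysine 9 of histone H3 and is a further cofactor of REST. Because these enzymes also serve other DNA-binding factors, an RNA level of a corepressor is not a measure of REST activity.

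RE1 sites are shown first because some of the REST target genes described at the end carry a match. The 16 central letters of the element, written from general knowledge, were searched on both strands of hg38. They are the capitals in the lines below, with 14 letters fixed and the pair between CACC and GGAC free, and 492 matches were found. A match lay inside a gene or within 5000 bases of it for 493 of 58336 listed genes (0.845%), and for 17 of the 34 genes (50%) of a list of REST target genes written from general knowledge. Of 35116 RefSeq promoter windows of hg38, 14 (0.0399%) held the match. The 8 sites below belong to listed target genes that rose in MYC MUT and were chosen after their values were seen. They are printed 5′ to 3′ on the strand of the match, with the searched letters in capitals.
BDNF, exon, chr11:27720675-27720698, minus strand: catTCAGCACCTTGGACAGagcca
CHGA, intron, chr14:92923521-92923544, plus strand: tttTCAGCACCGCGGACAGcgcct
CHGB, intron, chr20:5911702-5911725, plus strand: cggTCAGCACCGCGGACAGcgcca
L1CAM, intron, chrX:153875501-153875524, minus strand: attTCAGCACCAGGGACAGcgaac
SCN2A, intron, chr2:165238482-165238505, plus strand: ttcTCAGCACCATGGACAGcgtta
SNAP25, intron, chr20:10219670-10219693, plus strand: cttTCAGCACCGGGGACAGcggtc
SYN1, upstream of the gene, chrX:47620069-47620092, minus strand: gctTCAGCACCGCGGACAGtgcct
UNC13A, intron, chr19:17681752-17681775, minus strand: catTCAGCACCGTGGACAGcgcct
The match lies 224 bases before the gene start in SYN1, 202 bases after it in CHGB and 381 bases after it in CHGA, and farther inside the gene in the others, up to 47285 bases in SNAP25. A match describes these letters and is not a measurement of REST binding.

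The RNA level of REST itself (ENSG00000084093, chr4:56907876-56966808, plus strand, build hg38) did not move detectably. REST had 3131, 2972 and 2701 normalized counts in MYC WT, 3099, 2972 and 3187 in MYC MUT, and 3096, 2755 and 2770 in SWP. The 3 lines overlapped throughout. The log2 fold change was 0.07 ± 0.08 (SE) in MYC MUT against MYC WT, with a 95% interval of −0.10 to 0.25 (adjusted p = 0.481), and −0.03 in SWP against MYC WT, with an interval of −0.20 to 0.14 (adjusted p = 0.866). MYC MUT and SWP differed by 0.10, with an interval of −0.07 to 0.28 (adjusted p = 0.317). Changes smaller than these intervals could not be resolved with 3 libraries a line. Counts are per gene, so isoforms of REST, among them the truncated form made in neurons, were not separated. REST shares 81 bases of exon with NOA1 on the opposite strand, a gene with a mean of 5367 normalized counts, and whether counting used strand is not stated in the sources used here.

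Among the members as a set, MYC MUT differed from MYC WT in 6 of 9 genes at an adjusted p under 0.05, where 38.4% of all genes tested did so. Of these 6, RCOR3 and HDAC2 were higher (18.6% of all genes) and SIN3A, EHMT2, KDM1A and HDAC1 were lower (19.8%). Only KDM1A also passed a log2 fold change of 0.5, the second part of the rule for a call, and 21.4% of all genes passed both parts. In SWP against MYC WT none of the 9 members passed, at a background of 9.97% for the adjusted p by limma (4.49% higher, 5.48% lower) and 5.13% for a call. At an unadjusted p under 0.05 the count was 1, EHMT2, and edgeR and DESeq2 also gave 0 by the adjusted p. The ranges of the 3 libraries did not overlap for 7 members in MYC MUT against MYC WT (52.3% of all genes) and for 2 members, RCOR3 and EHMT2, in SWP against MYC WT (24.6%). MYC MUT and SWP, compared with each other directly, differed in 4 of 9 members (38.0% of all genes), namely RCOR3, SIN3A, KDM1A and HDAC1 (edgeR and DESeq2 each gave 5, with EHMT2 added), and the call of KDM1A (20.6%) held there too. These shares describe the set and do not set it apart from other genes.

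**Figure D1:**
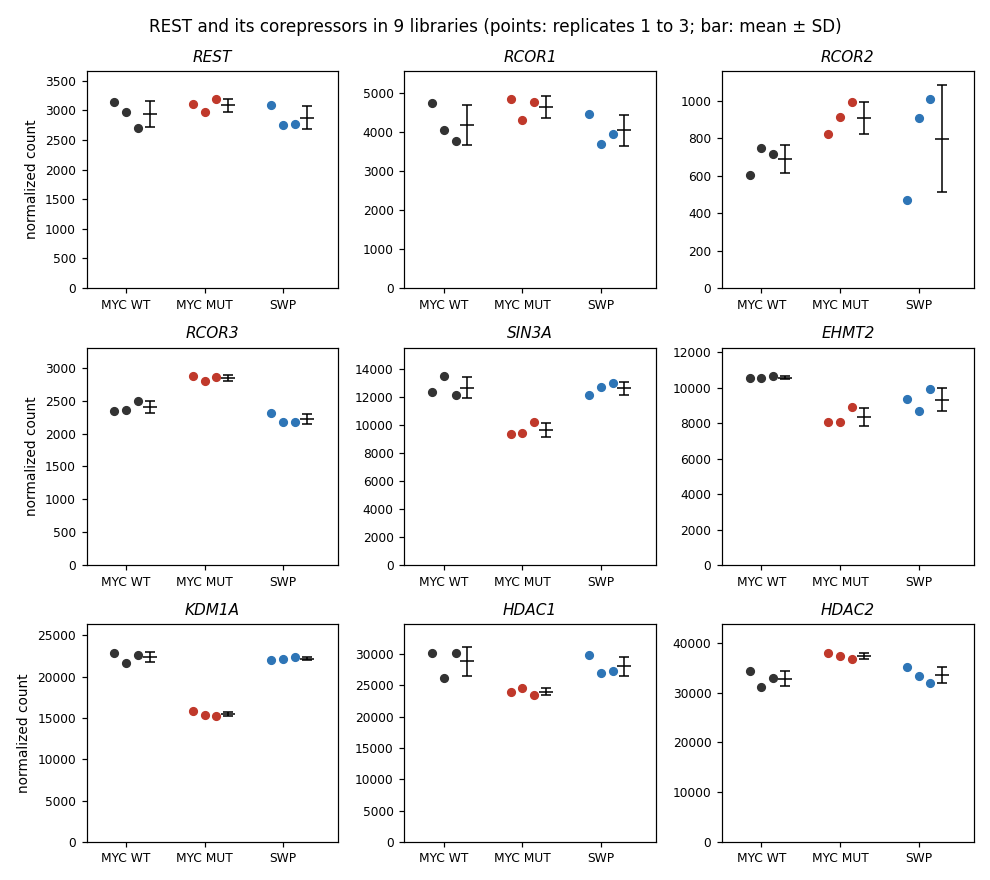
Normalized count of each member (y axis, from 0) in the 9 libraries, as points for replicates 1 to 3 of MYC WT, MYC MUT and SWP, with the mean ± SD beside them. KDM1A lies between 15273 and 15816 in MYC MUT and at 21687 or more in all other libraries, while the REST points of the 3 lines overlap.

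**Figure D2:**
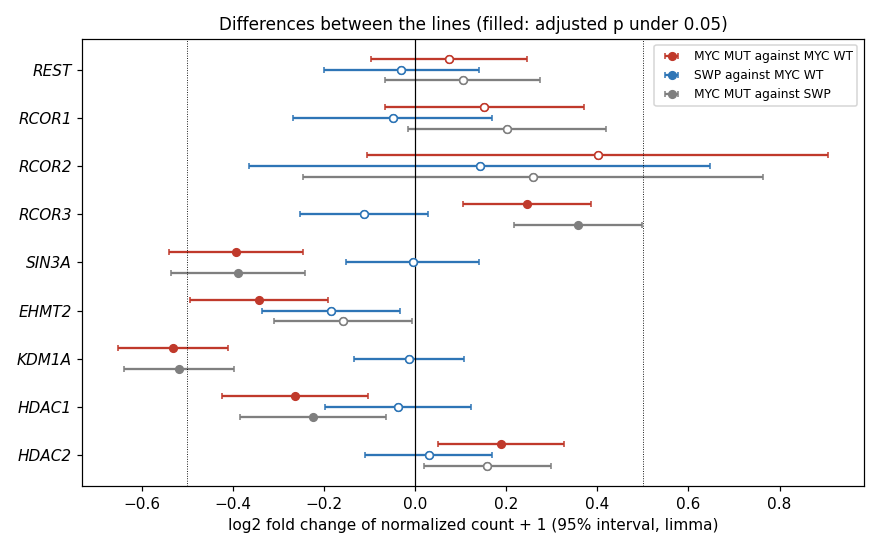
Log2 fold change of each member (x axis) with its 95% interval for the 3 comparisons, filled where the adjusted p was under 0.05. Dotted lines mark the threshold of 0.5. KDM1A alone lies beyond it with a filled point, in MYC MUT against MYC WT (−0.53) and against SWP (−0.52).

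KDM1A (ENSG00000004487, chr1:23019443-23083689, plus strand), the demethylase of the CoREST complex, fell the most of the members. It had 22900, 21687 and 22599 normalized counts in MYC WT, 15816, 15378 and 15273 in MYC MUT, and 22056, 22124 and 22369 in SWP. Every MYC MUT library lay below every other library, and the SWP libraries lay within the range of MYC WT. The MYC MUT mean was 69.2% of the MYC WT mean, a log2 fold change of −0.53 ± 0.05 (adjusted p = 3.19e-05). SWP against MYC WT gave −0.01 (interval −0.13 to 0.11, adjusted p = 0.918), and MYC MUT against SWP gave −0.52 ± 0.05 (adjusted p = 3.25e-05). The adjusted p of the first comparison stayed under 0.05 in all 17 alternatives, at 0.000457 or less. With libraries rescaled to equal totals the change was −0.46 against MYC WT and −0.49 against SWP, within the fold threshold, so the call ended while the difference did not. The 270 tested genes within 10 Mb of KDM1A, on the short arm of chromosome 1, had a median of −0.25 in MYC MUT against MYC WT, so its region was lower as well, by less than the gene.

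Of the 3 scaffolds of CoREST, which hold KDM1A to nucleosomes, RCOR3 was higher in MYC MUT and the other 2 did not pass the test. RCOR1 (ENSG00000089902, chr14:102592649-102730561, plus strand), the founding CoREST protein, had 4757, 4046 and 3764 normalized counts in MYC WT, 4846, 4308 and 4765 in MYC MUT, and 4462, 3704 and 3958 in SWP. Its lines overlapped, with a log2 fold change of 0.15 (interval −0.07 to 0.37, adjusted p = 0.25) in MYC MUT against MYC WT and −0.05 (interval −0.27 to 0.17, adjusted p = 0.824) in SWP against MYC WT. MYC MUT against SWP gave 0.20 (adjusted p = 0.133), and its adjusted p was 0.0232 with the replicate number as a block and 0.0441 without SWP replicate 1. RCOR3 (ENSG00000117625, chr1:211258377-211316385, plus strand) had 2343, 2350 and 2501 normalized counts in MYC WT, 2876, 2793 and 2856 in MYC MUT, and 2306, 2178 and 2168 in SWP. All MYC MUT libraries were above all others. RCOR3 was 1.18 times as high in MYC MUT as in MYC WT (log2 fold change 0.25 ± 0.06, adjusted p = 0.011) and 1.28 times as high as in SWP (0.36 ± 0.06, adjusted p = 0.00121). SWP against MYC WT gave −0.11 (interval −0.25 to 0.03, adjusted p = 0.326).

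RCOR2 (ENSG00000167771, chr11:63911230-63917164, minus strand), the scaffold with the lowest counts, had values that depended on a single library. It had 603, 748 and 719 normalized counts in MYC WT, 822, 913 and 995 in MYC MUT, and 473, 910 and 1010 in SWP. MYC MUT lay above MYC WT without overlap, while SWP replicate 1 lay below all other libraries and the other 2 SWP libraries lay within or above the range of MYC MUT. The log2 fold changes were 0.40 (interval −0.10 to 0.91, adjusted p = 0.193) in MYC MUT against MYC WT, 0.14 (interval −0.36 to 0.65, adjusted p = 0.772) in SWP against MYC WT, and 0.26 (adjusted p = 0.404) between the edited lines. Without SWP replicate 1, MYC MUT against MYC WT kept its 0.40 with an adjusted p of 0.00945, SWP against MYC WT gave 0.48 (adjusted p = 0.0237), and the edited lines differed by −0.08 (adjusted p = 0.618). The same library had the lowest MYC count among those of SWP, and its part in the RCOR2 value was not tested.

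SIN3A (ENSG00000169375, chr15:75369379-75455842, minus strand), the scaffold that binds the other end of REST, was lower in MYC MUT. It had 12345, 13490 and 12145 normalized counts in MYC WT, 9315, 9400 and 10190 in MYC MUT, and 12113, 12697 and 13007 in SWP. MYC MUT lay below both other lines without overlap, and SWP overlapped MYC WT. The MYC MUT mean was 76.1% of the MYC WT mean (log2 fold change −0.39 ± 0.07, adjusted p = 0.000868) and 76.4% of the SWP mean (−0.39 ± 0.07, adjusted p = 0.000932). SWP against MYC WT was −0.01, with an interval of −0.15 to 0.14 (adjusted p = 0.974). Genes within 10 Mb had a median of −0.14 in MYC MUT against MYC WT. An antisense transcript shares 884 exon bases with SIN3A at a mean of 200.2 normalized counts, against 11634 for SIN3A.

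EHMT2 (ENSG00000204371, chr6:31879759-31897698, minus strand), the methyltransferase of histone H3 lysine 9, was lower in MYC MUT, with the SWP mean between the others. It had 10520, 10541 and 10662 normalized counts in MYC WT, 8076, 8065 and 8918 in MYC MUT, and 9352, 8670 and 9938 in SWP. Both edited lines lay below MYC WT without overlap. The MYC MUT mean was 79.0% of the MYC WT mean (log2 fold change −0.34 ± 0.07, adjusted p = 0.00259). SWP against MYC WT gave −0.18 (interval −0.34 to −0.03, adjusted p = 0.126), and 0.0304 with the replicate number as a block. MYC MUT against SWP gave −0.16 (interval −0.31 to −0.01, adjusted p = 0.0944). The same difference passed with the block (adjusted p = 0.0281), with edgeR (−0.19, adjusted p = 0.0473) and with DESeq2 (−0.19, adjusted p = 0.0277). The 329 genes within 10 Mb, on the short arm of chromosome 6, had a median of 0.05, beside −0.34 for the gene.

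The deacetylases HDAC1 (ENSG00000116478, chr1:32292083-32333635, plus strand) and HDAC2 (ENSG00000196591, chr6:113933028-114011308, minus strand), close relatives that work in both the SIN3 and the CoREST complex, moved in opposite directions in MYC MUT against MYC WT. HDAC1 had 30202, 26162 and 30175 normalized counts in MYC WT, 23928, 24540 and 23506 in MYC MUT, and 29834, 26995 and 27344 in SWP. MYC MUT was lower than both without overlap, at 83.2% of the MYC WT mean (log2 fold change −0.26 ± 0.07, adjusted p = 0.0148) and 85.5% of the SWP mean (−0.22 ± 0.07, adjusted p = 0.0308). HDAC2 had 34310, 31235 and 32937 normalized counts in MYC WT, 38029, 37395 and 36728 in MYC MUT, and 35179, 33446 and 31927 in SWP. All MYC MUT libraries were above all others. Its log2 fold change was 0.19 ± 0.06 against MYC WT (adjusted p = 0.0356) and 0.16 ± 0.06 against SWP (adjusted p = 0.0696, and 0.0186 with the replicate block, 0.0288 with equal totals and 0.0446 without SWP replicate 1). Neither differed detectably in SWP against MYC WT (HDAC1 −0.04, interval −0.20 to 0.12, and HDAC2 0.03, interval −0.11 to 0.17). These differences were near the threshold. For HDAC1 in MYC MUT against MYC WT the adjusted p was 0.0564 when MYC WT replicate 3 was left out and 0.0551 when MYC MUT replicate 3 was, and against SWP it was 0.0548 to 0.0972 without any 1 of the MYC MUT libraries or SWP replicate 1 or 3. For HDAC2 against MYC WT it was 0.104 without MYC WT replicate 2, 0.0709 without MYC WT replicate 3, and 0.113, 0.0974 and 0.0724 without MYC MUT replicates 1, 2 and 3.

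The regions around the deacetylases had these values in MYC MUT against MYC WT. Within 10 Mb of HDAC1, on the short arm of chromosome 1, 280 genes had a median of −0.28, about the size of the change in HDAC1 itself. Within 10 Mb of HDAC2, on chromosome 6, 107 genes had a median of 0.03. The narrower window of 3 Mb gave −0.11 around HDAC1 (58 genes) and −0.09 around HDAC2 (35 genes). Per kilobase of exon, the ratio of HDAC1 to HDAC2 was 3.40, 3.24 and 3.54 in MYC WT, 2.43, 2.54 and 2.47 in MYC MUT, and 3.28, 3.12 and 3.31 in SWP. The ratio was lower in MYC MUT in every library. Its size depends on the annotated exon lengths, 3.97 kb for HDAC1 and 15.3 kb for HDAC2, and the comparison between lines does not. Copies of HDAC1 elsewhere in the genome, HDAC1P2 and HDAC1P1, had means of 956.2 and 123.9 normalized counts, and reads could be split between them and HDAC1.

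Levels of different genes were compared per kilobase of annotated exon, which includes exons of every annotated isoform and so understates genes with rarely used long exons. These lengths were 15.3 kb for HDAC2 and 18.3 kb for KDM1A, against 3.97 kb for HDAC1. Before division by length, HDAC2 had the higher MYC WT mean, 32827 normalized counts against 28846 for HDAC1. The order below therefore depends on the annotated lengths. In MYC WT the order from high to low was HDAC1 (7273 ± 586 normalized counts per kilobase, SD, n = 3), HDAC2 (2141 ± 100.5), EHMT2 (1449 ± 10.5), KDM1A (1222 ± 34.5), SIN3A (986 ± 56.5), RCOR1 (676 ± 82.6), REST (312 ± 23.1), RCOR3 (264 ± 9.80) and RCOR2 (226 ± 25.2). No 2 neighbours in that order overlapped in their 3 libraries. MYC MUT kept the order, but KDM1A had fallen to 845 ± 15.7, SIN3A at 750 ± 37.6 overlapped RCOR1 at 748 ± 46.8, and REST, RCOR3 and RCOR2 overlapped each other in turn. In SWP, RCOR2 at 262 ± 93.7 stood above RCOR3 at 244 ± 8.47, the pair overlapping, and EHMT2 overlapped KDM1A.

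**Figure D3:**
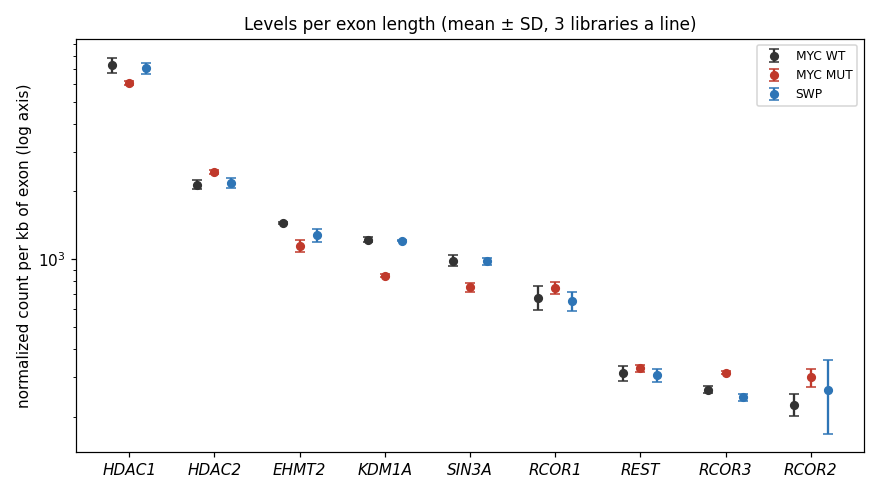
Normalized counts per kilobase of exon (log axis) for the 9 members in order of their MYC WT mean, as mean ± SD of 3 libraries for each line. HDAC1 stands highest at 7273 in MYC WT, and SIN3A and RCOR1 meet in MYC MUT at 750 and 748.

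The balance between KDM1A and its scaffolds changed accordingly. KDM1A per kilobase divided by RCOR1, RCOR2 and RCOR3 together was 1.02, 1.02 and 1.10 in MYC WT, 0.631, 0.645 and 0.592 in MYC MUT, and 1.07, 1.06 and 1.01 in SWP. All 3 MYC MUT libraries were below all others, and SWP overlapped MYC WT. Within the scaffold family RCOR1 held 57.8% ± 4.39 (SD, n = 3) of the summed level per kilobase in MYC WT, 55.0% ± 1.93 in MYC MUT and 56.4% ± 6.38 in SWP, so the shares of the family overlapped between the lines.

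Across the 9 libraries, RCOR1 was the member whose pattern was most like that of REST. Pearson's r of log2(normalized count + 1) was 0.94 for RCOR1, the 15th highest of 16868 genes with a mean of at least 50. HDAC2 had 0.61, RCOR3 0.51, and RCOR2, EHMT2, HDAC1, SIN3A and KDM1A between −0.26 and −0.50. Among the genes most like REST were ARID2, a subunit of a chromatin remodelling complex, with 0.98, CNOT4, a ubiquitin ligase, with 0.96, and CCDC134 and QSER1 with 0.96 each. These are descriptions over 9 libraries that share lines and replicate numbers. In MYC WT and in SWP, replicate 1 held the highest REST and the highest RCOR1 count.

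Other subunits of the complexes were read from lists. Of 9 partners in CoREST, 2 were called lower in MYC MUT against MYC WT (10.1% of all genes) and none higher (11.3%), with a median log2 fold change of −0.23 beside −0.0034 over all genes. ZMYM2, a zinc finger subunit, had 5834, 5606 and 5028 normalized counts in MYC WT, 3228, 3228 and 3250 in MYC MUT, and 5496, 5548 and 5389 in SWP. It was lower in MYC MUT without overlap (−0.76 ± 0.07, adjusted p = 1.13e-05), and the 102 genes within 10 Mb on chromosome 13 had a median of −0.33. GSE1, a CoREST-associated protein, rose in SWP against MYC WT, from 7608, 8102 and 7060 to 12347, 11107 and 12817 normalized counts (0.67 ± 0.08, adjusted p = 0.000308), with MYC MUT between them at 9169, 8212 and 9077.

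Of 15 partners in SIN3 complexes, 1 (6.67%) was called lower in MYC MUT, near the 10.1% of all genes, and none higher, with a median of 0.13. That gene was SAP18, a SIN3-associated protein, with 8192, 7439 and 8964 normalized counts in MYC WT, 5201, 5112 and 4880 in MYC MUT, and 8296, 7639 and 7632 in SWP (−0.69 ± 0.08, adjusted p = 5.16e-05). It lies near ZMYM2 on chromosome 13, and the 108 genes within 10 Mb had a median of −0.30. None of the 15 was called in SWP against MYC WT, with a median of 0.0048. Of 8 cofactors around G9a and REST none was called in either comparison (21.4% of all genes in MYC MUT, 5.13% in SWP), with medians of −0.21 and −0.05. By the adjusted p under 0.05 alone, 4 of the 8 were lower in MYC MUT (19.8% of all genes) and none higher (18.6%).

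Genes that act on the REST protein or its splicing did not pass the rule for a call. Of 10 listed, 9 were tested and none was called in MYC MUT (21.4% of all genes) or in SWP (5.13%) against MYC WT. BTRC, a ubiquitin ligase subunit that marks REST for degradation, had 6861, 6218 and 5877 normalized counts in MYC WT, 5320, 4919 and 5227 in MYC MUT, and 6562, 5923 and 5910 in SWP. It was lower in MYC MUT than in MYC WT (−0.29 ± 0.08, adjusted p = 0.0106, and 0.0532 without MYC MUT replicate 2), where the 192 genes within 10 Mb had a median of −0.23. USP7, which removes ubiquitin from REST, ranged from 13462 to 16642 over all 9 libraries (−0.06 in MYC MUT, adjusted p = 0.657, and −0.01 in SWP, adjusted p = 0.968). SRRM4, the neuronal splicing factor that makes the truncated REST, had at most 3 reads in any library and was not tested.

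Several other factors bring CoREST to DNA through a short SNAG domain, and all 5 listed were tested. INSM1, a neuroendocrine zinc finger factor, had 391, 449 and 401 normalized counts in MYC WT, 810, 918 and 869 in MYC MUT, and 239, 387 and 411 in SWP. It rose in MYC MUT (1.06 ± 0.17, adjusted p = 0.000722) with no overlap. SNAI1, a repressor of epithelial genes, rose from a mean of 90.8 to 152.3 normalized counts (0.74 ± 0.15, adjusted p = 0.00297), where the 145 genes within 10 Mb on chromosome 20 had a median of 0.35. SNAI2, its relative, had 5091, 6040 and 5086 normalized counts in MYC WT, 1508, 1616 and 1619 in MYC MUT, and 296, 352 and 317 in SWP. It fell in both edited lines, with log2 fold changes of −1.77 ± 0.09 in MYC MUT (adjusted p = 4.07e-07) and −4.07 ± 0.09 in SWP (adjusted p = 2.11e-09). GFI1B, a blood-lineage repressor named after its values were seen, was the remaining call. Its mean was 9.06 in MYC WT, 37.6 in MYC MUT and 10.96 in SWP, where the minimum for testing was a mean of 10. GFI1, also named after its values were seen, was not called against MYC WT in either edited line. GFI1 had means of 1083 in MYC WT, 969 in MYC MUT and 1445 in SWP, and was called lower in MYC MUT against SWP (−0.56).

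REST target genes were mostly higher in MYC MUT. Their list was written with earlier results of these data known, so its count is not independent evidence of the direction. Of 34 listed, 23 passed the minimum for testing, and of these 21 were called higher in MYC MUT against MYC WT and none lower, where 11.3% of all genes were called higher. The median log2 fold change was 1.56. STX1A (0.0015, adjusted p = 0.994) and BSN (0.19, adjusted p = 0.449), both synaptic genes, were the 2 tested targets not called. In SWP against MYC WT none was called higher (background 2.15%) and 1 was called lower (2.98%), with a median of −0.11 beside −0.06 over all genes. By the adjusted p under 0.05 alone, 1 target was higher in SWP (4.49% of all genes) and 1 lower (5.48%). MYC MUT against SWP gave 20 called higher (background 12.3%) and none lower (8.31%). A gene that passed the minimum only through MYC MUT had to differ: among the 22 targets with a mean of at least 10 in MYC WT alone, an alternative chosen after the data were seen, 20 were called higher in MYC MUT. The 11 targets that were not tested, among them GRIN1, SCG2 and STMN2, stayed at a mean of at most 8.17 normalized counts and at most 12.3 in any library.

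**Figure D4:**
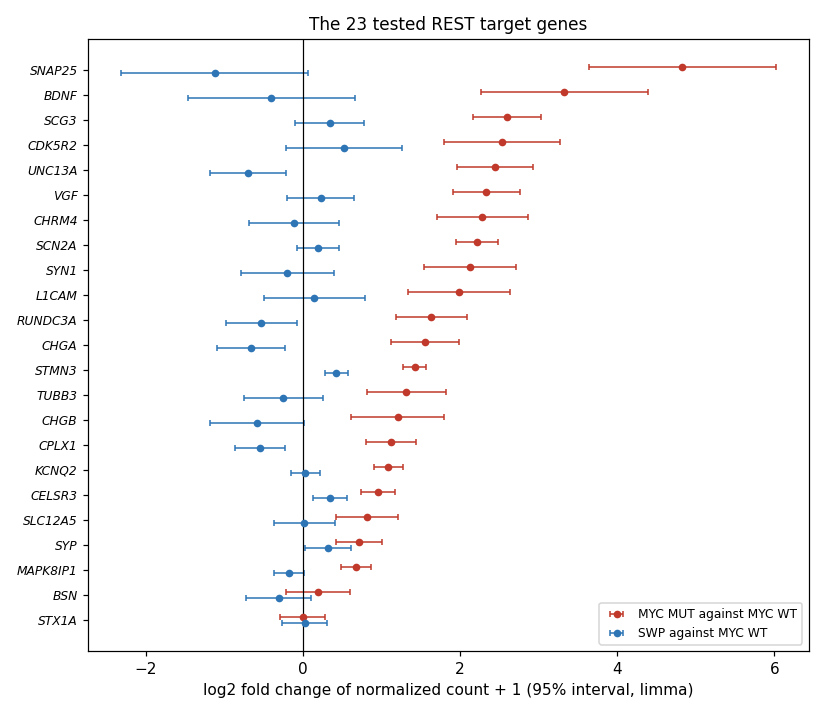
Log2 fold change with 95% interval (x axis) of the 23 tested REST target genes in MYC MUT against MYC WT and in SWP against MYC WT, ordered by the former. In MYC MUT the values run from 0.0015 for STX1A to 4.83 for SNAP25, and in SWP from −1.12 to 0.52. SNAP25 passed the minimum for testing only through MYC MUT.

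The largest rises were from low levels. SNAP25, a SNARE protein of synaptic vesicle fusion, had 5.13, 5.61 and 4.81 normalized counts in MYC WT, 156.2, 187.6 and 180.2 in MYC MUT, and 2.29, 5.94 and 0 in SWP. SNAP25 passed the minimum for testing only through MYC MUT, with means of 174.7 there, 5.18 in MYC WT and 2.74 in SWP. SNAP25 therefore had to differ, and its adjusted p against MYC WT is not evidence of a rise. The MYC MUT mean was 33.7 times the MYC WT mean (log2 fold change 4.83 ± 0.54, adjusted p = 5.77e-05), while SWP against MYC WT did not pass (−1.12 ± 0.54, adjusted p = 0.239). At these low counts single SWP libraries set the latter value, which was −1.77 without SWP replicate 2 (adjusted p = 0.0385) and −0.37 without SWP replicate 3. BDNF, a neurotrophin and a long-known REST target, had 8.20, 26.9 and 15.4 normalized counts in MYC WT, 151.6, 154.6 and 179.2 in MYC MUT, and 4.58, 14.1 and 20.8 in SWP (3.33 ± 0.48, adjusted p = 0.000334). SCG3, a protein of secretory granules, had 34.9, 34.8 and 26.95 in MYC WT, 193.2, 186.6 and 216.3 in MYC MUT, and 51.6, 32.7 and 40.4 in SWP (2.60 ± 0.20, adjusted p = 4.49e-06). In each of the 3 genes every MYC MUT library exceeded every other library. CPLX1, a regulator of vesicle release, was the target called lower in SWP, at 346, 336 and 436 normalized counts against 470, 532 and 632 in MYC WT (−0.55 ± 0.14, adjusted p = 0.0348), and it rose to 1039, 1164 and 1353 in MYC MUT (1.12 ± 0.14, adjusted p = 0.000142). Its call in SWP was lost without MYC WT replicate 2 or 3, MYC MUT replicate 2, or SWP replicate 1 or 2 (adjusted p 0.0616 to 0.135), and also with edgeR (0.0551). The call was lost as well with equal totals (0.0598) and with only the 2 compared lines in the fit (0.0809). The adjusted p was under 0.05 in 9 of 17 alternatives.

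The genes whose sites are printed above were picked because they were called higher in MYC MUT, so their rises are no independent result. SCN2A, a neuronal sodium channel, had 114.8, 94.3 and 98.2 normalized counts in MYC WT, 462.2, 512.3 and 460.8 in MYC MUT, and 120.3, 118.1 and 111.9 in SWP. SYN1, a synaptic vesicle protein with its match just before the gene start, had 25.6, 28.1 and 26.95 in MYC WT, 114.6, 111.8 and 137.4 in MYC MUT, and 30.9, 14.1 and 28.8 in SWP. Log2 fold changes in MYC MUT were 2.22 for SCN2A, 2.13 for SYN1, 2.45 for UNC13A, 1.98 for L1CAM, 1.56 for CHGA and 1.21 for CHGB. Targets with and without a match both rose: all 11 tested targets with the match were called (median 2.13), and 10 of 12 without it (median 1.11).

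Because the target list was written by hand, the same question was put to every gene with a match of the RE1 core, a set defined by DNA sequence alone but added after the data were seen. Of the 493 genes, 212 were tested, and 80 of these (37.7%) were called higher in MYC MUT against MYC WT, beside 11.3% of all genes, and 16 (7.55%) lower, beside 10.1%. In SWP against MYC WT, 12 (5.66%) were higher, beside 2.15%, and 16 (7.55%) lower, beside 2.98%. The medians were 0.25 and −0.04. Without the genes of the hand-written list, 69 of 201 (34.3%) were higher in MYC MUT. Among the 50 tested genes with the match within 5000 bases of their start, 26 (52.0%) were higher and 2 lower. Genes with a match were longer than others, with a median span of 87.0 kb against 18.1 kb, and the part of length in these shares was not tested. Without chromosome 20, where the region around SLC12A5 had a median of 0.38, 71 of 202 were higher. Of the 197 that also had a mean of at least 10 in MYC WT, 68 were higher (34.5%, against 10.4% of all genes selected in the same way).

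**Figure D5:**
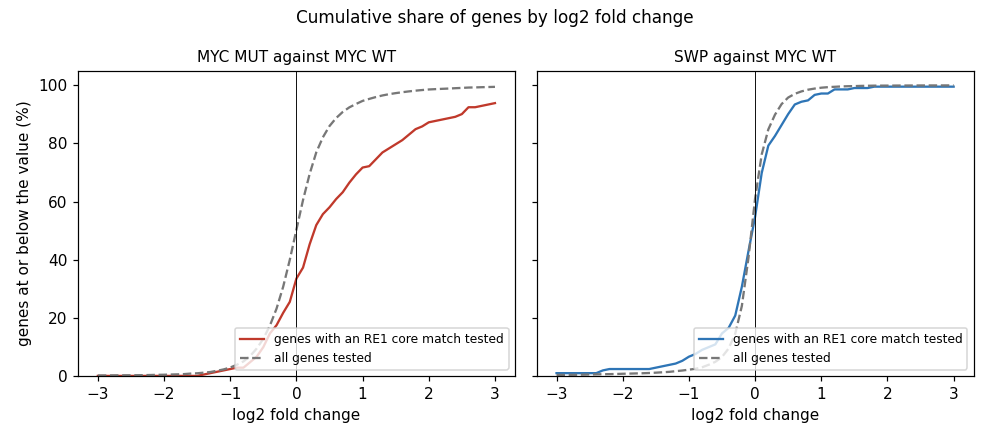
Cumulative share of genes (y axis, percent) at or below each log2 fold change (x axis) for the 212 tested genes with an RE1 core match (solid) and all 20884 tested genes (dashed), in MYC MUT and in SWP against MYC WT. In MYC MUT the solid curve runs to the right of the dashed one on the positive side, where 37.7% against 11.3% were called higher.

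Outside the hand-written list, the genes with a match and a mean of at least 50 that rose most in MYC MUT, named after their values were seen, were PRKCB, NOVA2 and SCN3B. PRKCB, a protein kinase C, went from 107.6, 161.6 and 120.3 normalized counts in MYC WT to 3367, 3417 and 3579 in MYC MUT, with 45.8, 66.1 and 61.1 in SWP (4.74 ± 0.17, adjusted p = 2.68e-08). NOVA2, a neuronal splicing factor, went from 49.2, 93.2 and 80.9 to 1199, 1291 and 1513, with 48.1, 99.6 and 93.4 in SWP (4.19 ± 0.28, adjusted p = 2.12e-06). SCN3B, a sodium channel subunit, went from 40.0, 40.4 and 26.0 to 498.2, 525.9 and 555.3 (3.88 ± 0.20, adjusted p = 3.64e-07). With 97.4, 64.6 and 71.5 normalized counts in SWP, SCN3B was called higher there too (1.12, adjusted p = 0.00527), while PRKCB was called lower in SWP (−1.15, adjusted p = 0.00142).

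Of 6 listed markers of neurons, 3 were tested and all 3 were called higher in MYC MUT against MYC WT, beside 11.3% of all genes. NEFL rose from 7135, 7041 and 6867 to 14992, 14388 and 14955 normalized counts, with 4181, 4953 and 5391 in SWP. MAP2 rose from a mean of 51.9 to 217.4, and RBFOX3 from 48.8 to 114.5. RBFOX3 is also among the genes with an RE1 core match counted above as higher in MYC MUT. The 6 neuron markers summed to 6984 to 7221 normalized counts in MYC WT, 14725 to 15364 in MYC MUT and 4277 to 5488 in SWP, most of it NEFL. Of the 6 markers of HEK293T cells, 2 were also called higher in MYC MUT against MYC WT and none lower, with a median log2 fold change of 0.46. In SWP against MYC WT, 1 HEK293T marker, KRT8 (−1.27), and 1 neuron marker, NEFL (−0.54), were called lower (2.98% of all genes). No marker of either list was called higher there (2.15%). The other listed neuron markers, ELAVL3, ELAVL4 and DCX, were not tested and had at most 5.55 normalized counts in any library. ELAVL3 had 0 in each MYC WT library, 5.55, 4.86 and 2.92 in MYC MUT, and 0, 1.49 and 0 in SWP. The part of the neuron markers in the REST target result was not tested.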

How the data were processed

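RNA-seq of HEK293T cells was measured in 9 libraries, 3 each of MYC WT, MYC MUT and SWP, grouped by the sample titles. The authors aligned reads of poly(A)-selected RNA to hg38 with BWA 0.7.17-r2188, an aligner that leaves reads over splice junctions unjoined. Picard served for duplicates, and reads were assigned to GENCODE genes by a tool not given in the sources used here. The deposited values are a signal that is never negative, namely counts the authors divided by DESeq2 size factors, and 100% of them gave whole reads (relative tolerance 1e-06).

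The test was limma 3.58.1 (R 4.3.3, eBayes with trend, two-sided) on log2(normalized count + 1). All 9 libraries shared 1 fit, restricted to 20884 genes whose mean reached 10, with p-values adjusted over them by Benjamini-Hochberg. Genes counted as called when the adjusted p was below 0.05 and the absolute log2 fold change above 0.5. Alternatives included edgeR 4.0.16 and DESeq2 1.42.0 on the recovered reads. The fits were tested on simulated data. Exon lengths and positions come from GENCODE 44 on hg38, promoters from RefSeq. Intervals cover 95%.

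Members and lists were chosen with earlier results of these data known. Genes named are the members, MYC, BTRC, USP7 and SRRM4, the 3 called genes of each list with the largest rise and fall (mean of at least 50, for REST targets 10), and the 5 most like REST, of which some are not reported here. Others, and the RE1 gene sets, were chosen after values were seen. Same-numbered libraries were taken as paired where all 3 correlations of their deviations exceeded 0.1: 0.555, 0.403 and 0.102 for MYC WT and SWP, 0.333, 0.241 and 0.232 for MYC MUT and SWP. The main fit left this pairing out, and the replicate number entered as a block only in an alternative. For MYC WT and SWP the rule is weak, as differently numbered libraries reached 0.263 (MYC WT 2 with SWP 3) and 0.166 (MYC WT 3 with SWP 2).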

Additional observations from a re-analysis of the deposited data

Results flagged for a closer look

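The following results differed between the effects of the MYC MUT and SWP edits, by the limma test of the difference itself, which equals MYC MUT against SWP (adjusted p under 0.05, log2 scale). Among the members, RCOR3 differed by 0.36, SIN3A by −0.39, KDM1A by −0.52 and HDAC1 by −0.22. Among complex partners and regulators, ZMYM2 differed by −0.76, GSE1 by −0.45, SAP18 by −0.63 and BTRC by −0.25. The adjusted p of BTRC was 0.0962 without MYC MUT replicate 2, 0.0546 without MYC MUT replicate 3 and 0.0636 without SWP replicate 1. Among other recruiters of CoREST, INSM1 differed by 1.36, SNAI1 by 0.50 and SNAI2 by 2.30, the last being lower than MYC WT in both lines. For SNAI1 the adjusted p was 0.107 without MYC MUT replicate 2 (difference 0.39), 0.0505 without MYC MUT replicate 3 and 0.0647 without SWP replicate 2. HDAC1 also lost its adjusted p under 0.05 without single libraries, at 0.0548 to 0.0972. Among REST targets, SNAP25, which passed the minimum only through MYC MUT and so had to differ, differed by 5.95. BDNF differed by 3.73, SCG3 by 2.25 and CPLX1 by 1.67, and 20 of 23 tested targets were called higher in MYC MUT than in SWP. MYC itself differed by −0.87. In all of them except GSE1 and SNAI2 the difference between MYC MUT and MYC WT was larger than that between SWP and MYC WT.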

How the results depend on the processing

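With 3 libraries a line, changes inside the intervals given could not be resolved, and line, clone and pool cannot be told apart. REST target genes called higher in SWP numbered 0 in every alternative run, and those in MYC MUT against MYC WT 20 or 21. Where a value below changed side or sign, the cause was not tested. Libraries rescaled to equal totals left 0 members called in MYC MUT against MYC WT and 0 against SWP, and the adjusted p alone gave 6 and 4. The match within 5000 bases of the gene start (chosen after seeing the data) left 50 tested genes, of which 26 were called higher in MYC MUT against MYC WT, 4 in SWP against MYC WT and 24 in MYC MUT against SWP.

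With the replicate number as a block, members with an adjusted p under 0.05 numbered 1 in SWP against MYC WT and 7 in MYC MUT against SWP. For MYC WT with MYC MUT the pairing did not hold (correlations 0.328, 0.146 and 0.0490), and the block gave RCOR2 an adjusted p of 0.0368, and 4970 genes called in place of 4476.

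Small values near 0 changed sign. In MYC MUT against MYC WT, USP7 was 0.0174 with equal totals. In SWP against MYC WT with equal totals, edgeR and DESeq2 in that order, REST was 0.0196, 0.0168 and 0.0159, SIN3A 0.0442, 0.0411 and 0.0407, KDM1A 0.0361, 0.0336 and 0.0329, HDAC1 0.0113, 0.00731 and 0.00654, ZMYM2 0.0492, 0.0445 and 0.0441, BTRC 0.00743, 0.00405 and 0.00325, and USP7 0.0406, 0.0386 and 0.0378. RCOR1 was 0.00036 with equal totals.

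Leaving out libraries one at a time gave these ranges. In MYC MUT against MYC WT, USP7 ran from −0.127 to 0.0105. In SWP against MYC WT, REST ran from −0.0883 to 0.0181, RCOR1 from −0.123 to 0.0461, RCOR2 from −0.0656 to 0.481, SIN3A from −0.0344 to 0.0413, KDM1A from −0.0363 to 0.0029, HDAC2 from −0.00552 to 0.0644, ZMYM2 from −0.0622 to 0.0450, SAP18 from −0.127 to 0.00799, SNAP25 from −1.77 to −0.369, BDNF from −0.814 to 0.167, BTRC from −0.0928 to 0.0188, USP7 from −0.0794 to 0.0614 and MYC from −0.285 to 0.116, and members with an adjusted p under 0.05 numbered 0 to 1. In MYC MUT against SWP, RCOR2 ran from −0.0801 to 0.466 and USP7 from −0.119 to 0.0220.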
